A study of Mus musculus with 70 samples.

Results

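The Eph receptors are the largest family of receptor tyrosine kinases, and 10 of their genes were followed in the dorsal hippocampus across 7 groups of mice. The genes were Epha3, Epha4, Epha5, Epha6, Epha7, Epha10, Ephb1, Ephb2, Ephb3 and Ephb6, taken by symbol from the 24346 genes listed, and each symbol was found 1 time. They were chosen by symbol with their measured FPKM in these libraries known, so the levels are a description and were not tested against other genes. The other 4 Eph receptor genes listed, Epha1, Epha2, Epha8 and Ephb4, were not members. The lowest mean level among the members was that of Epha3, 4.01 FPKM (mapped fragments divided by transcript length and library total), and the highest among the other 4 was that of Ephb4, 1.39 FPKM.

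The mice were adult C57BL/6J males, wild type in all groups and housed singly, with 10 libraries per group and 5 per group from each of 2 harvest cohorts. Group names give the days of voluntary wheel running, of a sedentary delay and of a second bout of running. Mice of 14-0-0 ran for 14 days, those of 14-7-0 or 14-14-0 had a delay of 7 or 14 days after that, and those of 14-7-2 ran again for 2 days after 7 days of delay. Mice of 0-0-2 ran for 2 days only. Sedentary mice had no running. All of these had a 3 min acquisition session of the object location memory (OLM) task, in which mice explore objects placed in an arena, and tissue was taken 1 h later. Home cage mice had neither running nor OLM. The comparisons with sedentary ask which receptor transcripts follow an exercise schedule after the same training, and home cage against sedentary asks the same of the training session.

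Eph receptors bind ephrins, ligands that are themselves anchored in the membrane of a neighbouring cell, so that signals pass where cells touch. Class A receptors mostly bind ephrin-A ligands, which hang on a lipid anchor, and class B receptors mostly bind transmembrane ephrin-B ligands; Epha4 binds both. Bound receptors act on the actin cytoskeleton, and ephrins can signal back into the cell that carries them. In development the system guides axons and sets borders between cell groups. In the adult hippocampus Epha4 on dendritic spines meets ephrin-A3 on astrocytes, and Ephb2 clusters with NMDA receptors at excitatory synapses. Epha10 and Ephb6 have kinase domains that lack activity.

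The file gave FPKM and no read counts, and read totals given with the study carry barcode names that the labels do not tie to samples, so the depth of each library was not used here and intervals for counting error were not computed. No libraries were identical. The library 14-7-0 replicate 4 listed 10279 genes at 0, against 6243 to 7199 in each of the other libraries, and its member values lay inside the range of its group. A pair of libraries stood apart in the members and in markers of cell types. Sedentary replicate 6 lay outside the range of the other 9 sedentary libraries for 52.3% of the 12994 genes tested, and 0-0-2 replicate 8 lay outside that of the other 9 libraries of its group for 33.6%. Results that rest on sedentary replicate 6 are given with and without it. The tissue is bulk, so fewer cells of a type and less RNA per cell cannot be told apart.

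Class A receptors made up most of the signal. Over the 70 libraries the mean level was 105 FPKM for Epha4 and 80.9 FPKM for Epha7, receptors of repulsive ephrin-A signals. Epha6 and Epha5 followed at 26.8 and 25.8 FPKM. The mean was 17.2 FPKM for Ephb6 and 11.3 FPKM for Ephb1, a class B receptor of axon guidance and of dentate progenitors. Ephb2, Epha10 and Ephb3 had 7.93, 7.92 and 5.40 FPKM. Epha4 alone held a median of 36.1% of the summed FPKM of the 10 genes and Epha7 27.9%.

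This order was nearly the same in every library. Epha4 exceeded Epha7 in 70 of 70 libraries, and Epha7 exceeded Epha6 in 70 of 70. Epha6 and Epha5 could not be ordered, since Epha6 was the higher in 44 of 70. Ephb2 exceeded Epha10 in 37 of 70, which is no order either. Between the other neighbours the higher gene led in 59 (Ephb3 over Epha3) to 69 libraries (Ephb1 over Ephb2, and Epha10 over Ephb3). The 4 other Eph genes were low, with medians of 0.0864 FPKM for Epha1, 0.343 for Epha2, 0.346 for Epha8 and 1.34 for Ephb4.

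The receptors share a kinase domain but differ in base composition, and several of them varied between libraries with it. The GC content of the longest transcript was 40.1% for Epha5, 41.7% for Epha7, 41.9% for Epha3, 45.6% for Epha4 and 48.0% for Epha6. It was 52.7% for Ephb1, 55.3% for Ephb2, 57.0% for Ephb3, 59.4% for Ephb6 and 59.5% for Epha10. The same 20 codons of the kinase domain, each inside a single coding exon, are shown for 5 members to make this visible (GENCODE M21 transcripts, GRCm38, the build named mm10 in the labels). Letters are the coding strand in lower case, with G or C at the third position of a codon in capitals.
Epha5, chr5:84081091-84081150, minus strand: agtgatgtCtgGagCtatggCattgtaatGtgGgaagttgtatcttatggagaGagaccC
Epha7, chr4:28951329-28951388, plus strand: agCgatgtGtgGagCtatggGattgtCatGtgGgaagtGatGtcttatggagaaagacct
Epha4, chr1:77380888-77380947, minus strand: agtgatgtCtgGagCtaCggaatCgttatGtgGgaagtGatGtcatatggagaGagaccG
Ephb3, chr16:21221693-21221752, plus strand: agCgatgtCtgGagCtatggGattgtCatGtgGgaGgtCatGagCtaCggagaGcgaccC
Ephb6, chr6:41619297-41619356, plus strand: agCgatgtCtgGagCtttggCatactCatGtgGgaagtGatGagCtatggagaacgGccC
Of the 20 codons, 8 ended in G or C in Epha5, 10 in Epha7, 11 in Epha4, 15 in Ephb3 and 13 in Ephb6. The window does not follow the whole transcript in every member, since Epha6 had 15 such codons in it at 48.0% GC overall. No annotated gene overlapped Ephb2, Ephb3 or Ephb6. Epha6, Epha7 and Epha10 each overlap an annotated antisense gene (Gm9017, Gm11915 and 1700125G02Rik). Epha6 overlaps 4 other genes in all and Ephb1 9, and Epha3, Epha4 and Epha5 overlap 1 each (a small RNA or a pseudogene), so reads could be shared there.

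**Figure D1:**
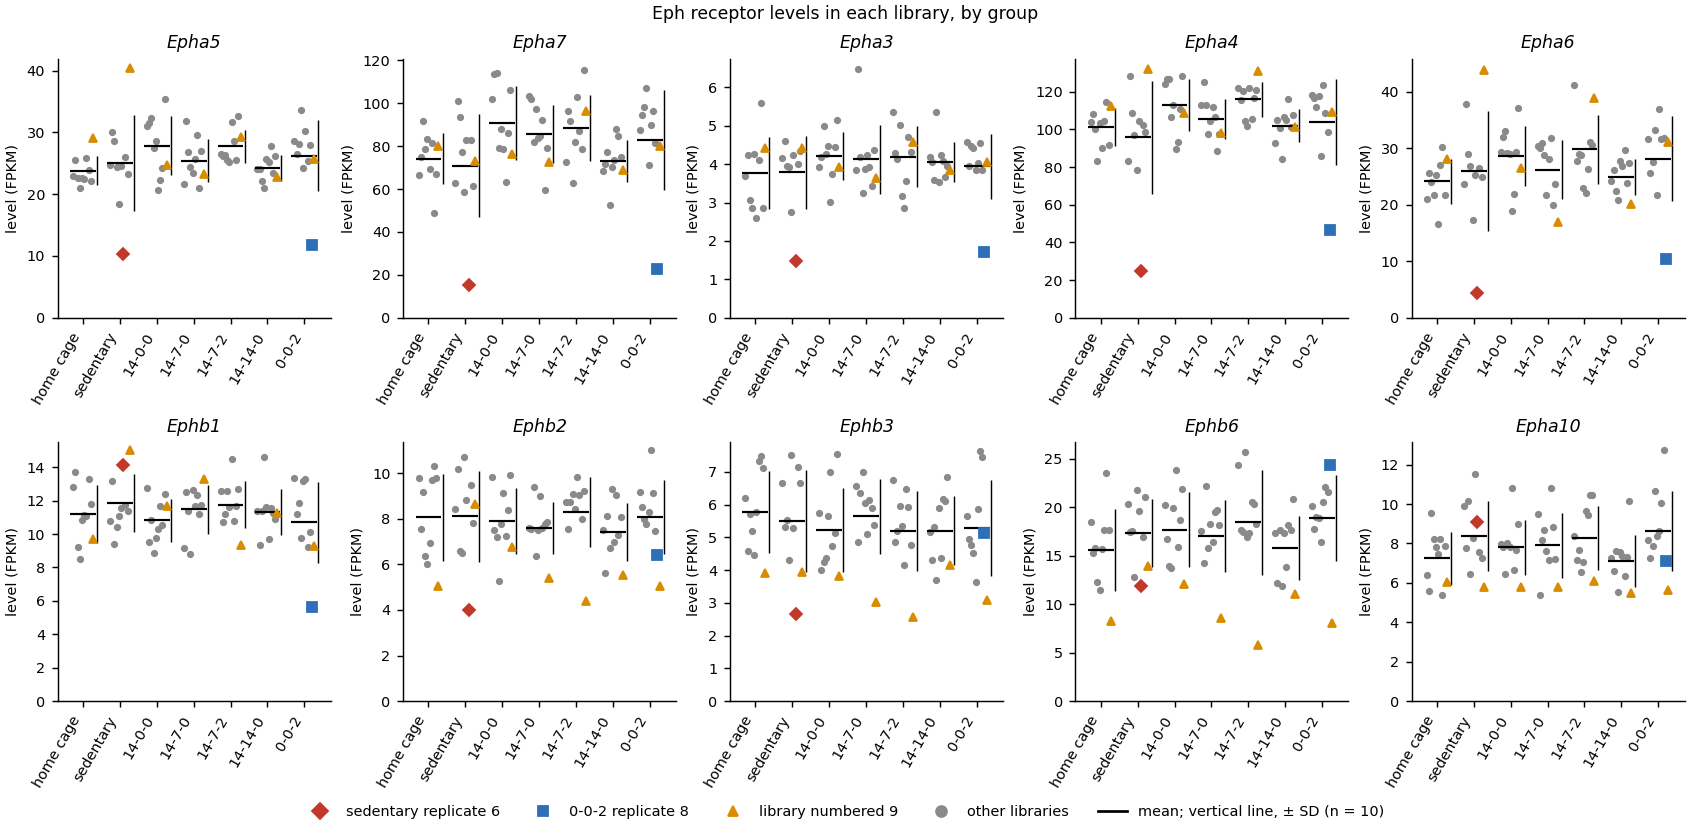
Level in FPKM (y axis, linear from 0) of each Eph receptor in every library, by group (x axis), in order of transcript GC content from Epha5 to Epha10, with the mean and SD of each group (n = 10). Sedentary replicate 6 (diamond) and 0-0-2 replicate 8 (square) lie far below the rest in the upper row, where Epha7 has 15.1 and 22.5 FPKM, and the libraries numbered 9 (triangles) are low in Ephb3, Ephb6 and Epha10.

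Sedentary replicate 6 had low levels of most receptors. Its value was below all of the other 9 sedentary libraries for 8 of the 10 genes. Epha4 was at 24.9 FPKM in it, where the other 9 ran from 78.6 to 132 with a median of 102. Epha7 was at 15.1 FPKM against 58.7 to 101.1, and Epha6 at 4.34 FPKM against 17.4 to 43.8. The other class A members were less far off, with Epha5 at 10.3 FPKM against a lowest value of 18.4 and Epha3 at 1.49 FPKM against 2.74. Among class B receptors, Ephb2 was at 4.02 FPKM, Ephb3 at 2.65 and Ephb6 at 11.8, each under the lowest of the other 9 (6.49, 3.94 and 12.8). Ephb1 (14.1 FPKM) and Epha10 (9.11 FPKM) lay inside the range of the others. On log2(FPKM + 0.1) the distance from the median of the other 9 ran from -2.59 for Epha6 to 0.31 for Ephb1, with a median of -1.18 over the members and -0.023 over all genes tested. The share of all genes outside the range of the other 9, given above, was not split into below and above.

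The ephrins of that library went the other way. It was above the other 9 sedentary libraries for 6 of 8 ephrins. The share of all genes above them was not computed. Efnb3, a transmembrane ligand, was at 128 FPKM against a highest value of 54.7, Efna5 at 5.17 against 1.37, and Efnb2 at 10.03 against 8.77. Only Efna3, the ligand on astrocytes, was below the others, at 28.7 FPKM against a lowest value of 29.6, and Efna4 lay inside their range. Of the other Eph genes, Epha8 was at 1.64 FPKM in it and no higher than 0.633 in the other 9.

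The markers of hippocampal neurons were low in the same library. The summed level of 5 dentate granule cell markers was 4.40 FPKM, against 35.3 to 148 in 68 other libraries, and all 5 were below the other 9 sedentary libraries. Lct, Dsp and Tdo2, which define granule cells, were at 0.0483, 0.143 and 0.214 FPKM, and none was listed at 0. The sum of 4 excitatory neuron markers was 377 FPKM, against 1371 to 2314 in the other 68. The vesicular glutamate transporter Slc17a7 was at 17.1 FPKM, against a lowest value of 509 among the other sedentary libraries. Markers of some other tissue were high. The sum of 6 striatal markers was 211 FPKM against 28.5 to 112, and that of 6 oligodendrocyte markers 6891 against 1314 to 4890. The sum of 6 thalamic markers was 323 FPKM against 14.3 to 208, with 5 above the other 9 sedentary libraries and 1 below. Of 4 neocortical markers 2 were below the other 9 sedentary libraries and none above. Their sum of 30.1 FPKM was under the lowest of those 9 (35.5) and inside the range of the other 68. Of 6 inhibitory neuron markers 3 were above the other 9 sedentary libraries (Gad1, Gad2 and Slc32a1) and 2 below (Pvalb and Vip), and their sum of 904 FPKM lay inside the 378 to 908 of the other 68. The part of these markers in the receptor values was not tested.

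The second library showed another selection of receptors. In 0-0-2 replicate 8, 6 of 10 members were below the other 9 libraries of the group: Epha3, Epha4, Epha5, Epha6, Epha7 and Ephb1. Epha7 was at 22.5 FPKM there, where the others ran from 71.3 to 107, and Epha4 at 46.4 FPKM, where they ran from 85.9 to 123. Epha6 was at 10.3 FPKM against a lowest value of 21.8, and Ephb1 at 5.64 FPKM against 9.21. Ephb6 was above them, at 24.3 FPKM against a highest value of 22.1, and Epha10, Ephb2 and Ephb3 lay inside. The median distance was -1.09 on the log2 scale over the members, where it was 0 over all genes tested. Ephrins were above the other 9 for 4 of 8 genes, with Efnb2 at 14.6 FPKM against 7.31 and Efnb1 at 5.52 against 4.01. Here too the share of all genes outside the range was not split into below and above.

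Its cell type markers differed from those of sedentary replicate 6. Of 5 dentate markers 4 were below the other 9 of the group, and none was at 0. Sums over 3 lists of neuron markers were below those of the other 9. They were 58.8 FPKM for dentate granule cells (lowest of the others 62.96), 1435 for excitatory neurons (1523) and 91.7 for CA3 (112). All 3 sums lay inside the range of the 68 libraries. Of 3 CA3 markers 2 were below the other 9 and 1 above. The CA1 sum of 200 FPKM lay inside the 133 to 325 of the other 9. For inhibitory neurons the sum of 822 FPKM was above their highest value of 722. The striatal sum of 33.0 and the oligodendrocyte sum of 1482 lay inside the range of the group. Of 6 inhibitory neuron markers 2 were above the other 9 and none below, with Sst at 553 and Vip at 16.1 FPKM. Of 4 neocortical markers 2 were above, with Fezf2 at 26.1 FPKM against at most 17.5, and 1 was below, Lamp5 at 21.1 against at least 21.5. Of 4 meningeal markers 2 were above, with Dcn at 86.6 FPKM against at most 15.0. Their part in the receptor values was not tested.

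**Figure D2:**
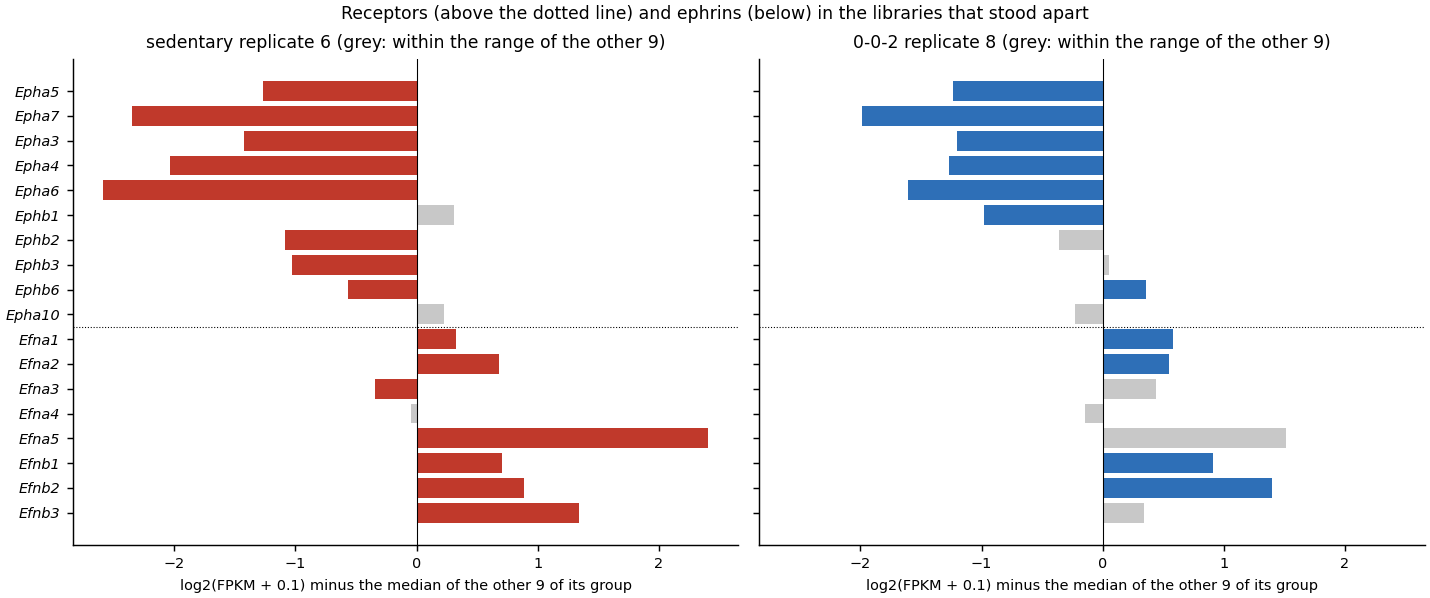
Distance of sedentary replicate 6 (left) and 0-0-2 replicate 8 (right) from the median of the other 9 libraries of the group, on log2(FPKM + 0.1), for the 10 receptors and 8 ephrins, with grey bars inside the range of the other 9. Receptors of the class A block reach -2.59 (Epha6, left) and -1.99 (Epha7, right), while Ephb1 is inside on the left and -0.98 on the right, and most ephrins point the other way.

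No receptor passed the test in any comparison of an exercise schedule with sedentary (limma on log2(FPKM + 0.1), unadjusted p under 0.05). Epha4 was left out of these tests because the study named it in a list drawn from the same comparisons, so 9 receptors were tested. In 14-0-0, 0 of 9 were called, where 9.15% of all genes tested were. The count was also 0 of 9 for 14-7-2 (4.39% of all genes), for 14-7-0 (3.26%), for 14-14-0 (4.95%) and for 0-0-2 (2.37%), and home cage gave 0 of 9 as well (2.3%). Without sedentary replicate 6 it stayed at 0 of 9 in each of these 6 comparisons. The share of all genes called was then 10.3% for 14-0-0, 3.58% for 14-7-2 and 3.29% for 14-7-0, and it was 6.97% for 14-14-0, 2.52% for 0-0-2 and 3.15% for home cage. Between exercise schedules, 0 of 9 were called for 14-0-0 against 14-7-0 (5.63%) and for 14-7-2 against 14-7-0 (5.39%). A test over all 7 groups called 0 of 9 (7.63%), the smallest p being 0.17 for Epha7 (limma).

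Epha7 came nearest. Its lowest, median and highest values were 15.1, 75.1 and 101.1 FPKM in sedentary and 48.7, 76.8 and 91.6 FPKM in home cage. They were 63.3, 87.0 and 114 FPKM in 14-0-0, 59.3, 84.2 and 103 in 14-7-0 and 62.7, 89.4 and 116 in 14-7-2. In 14-14-0 they were 52.6, 72.7 and 87.9 FPKM and in 0-0-2 22.5, 88.7 and 107. All groups overlapped. The group medians split into 84.2 to 89.4 FPKM in 4 exercise groups and 72.7 to 76.8 in 14-14-0, home cage and sedentary. The difference from sedentary was 0.47 ± 0.25 (log2, SE) in 14-0-0 (limma, unadjusted p = 0.0726, adjusted p = 0.585) and 0.44 ± 0.24 in 14-7-2 (unadjusted p = 0.0893, adjusted p = 0.847). Without sedentary replicate 6 these were 0.24 ± 0.12 (limma, unadjusted p = 0.0671) and 0.20 ± 0.12 (unadjusted p = 0.0947). With all libraries, Cyber-T on FPKM called Epha7 higher in 14-0-0 and 14-7-2 (3.54% and 1.27% of all genes called). The study names Cyber-T as its test but gives no settings, so the version run here may differ from it. The study's list of genes up-regulated only in 14-0-0 and 14-7-2 does not include Epha7. A joint fit of all 7 groups called Epha7 higher in 14-0-0, 14-7-0 and 14-7-2 (11.9%, 6.9% and 8.33%). The other alternatives are given at the end.

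Epha4 is given as a description. Its lowest, median and highest values were 24.9, 100 and 132 FPKM in sedentary and 83.4, 104 and 114 in home cage. They were 89.7, 112 and 128 FPKM in 14-0-0, 88.7, 106 and 125 in 14-7-0 and 102, 118 and 131 in 14-7-2. They were 84.3, 103 and 116 FPKM in 14-14-0 and 46.4, 110 and 123 in 0-0-2. The highest sedentary library exceeded every library of the other groups. The mean log2 difference from sedentary was 0.33 in 14-0-0 and 0.38 in 14-7-2, and without sedentary replicate 6 it was 0.13 and 0.18.

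The other members moved less or with wide intervals. For 14-0-0 the log2 differences ran from -0.13 (Ephb1, 95% interval -0.30 to 0.048) to 0.30 (Epha6, -0.29 to 0.89). Epha5 was at 0.20 (-0.15 to 0.56) and Epha3 at 0.20 (-0.14 to 0.53). Without sedentary replicate 6, Epha6 fell to 0.037 (-0.27 to 0.34) and Epha5 to 0.070 (-0.18 to 0.33). The class B receptors Ephb2, Ephb3 and Ephb6 were between -0.049 and 0.027 in 14-0-0, with intervals from -0.40 at the lowest to 0.31 at the highest. In 14-14-0, Epha10 was at -0.22 (-0.47 to 0.031), the lowest value of any member in these comparisons.

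**Figure D3:**
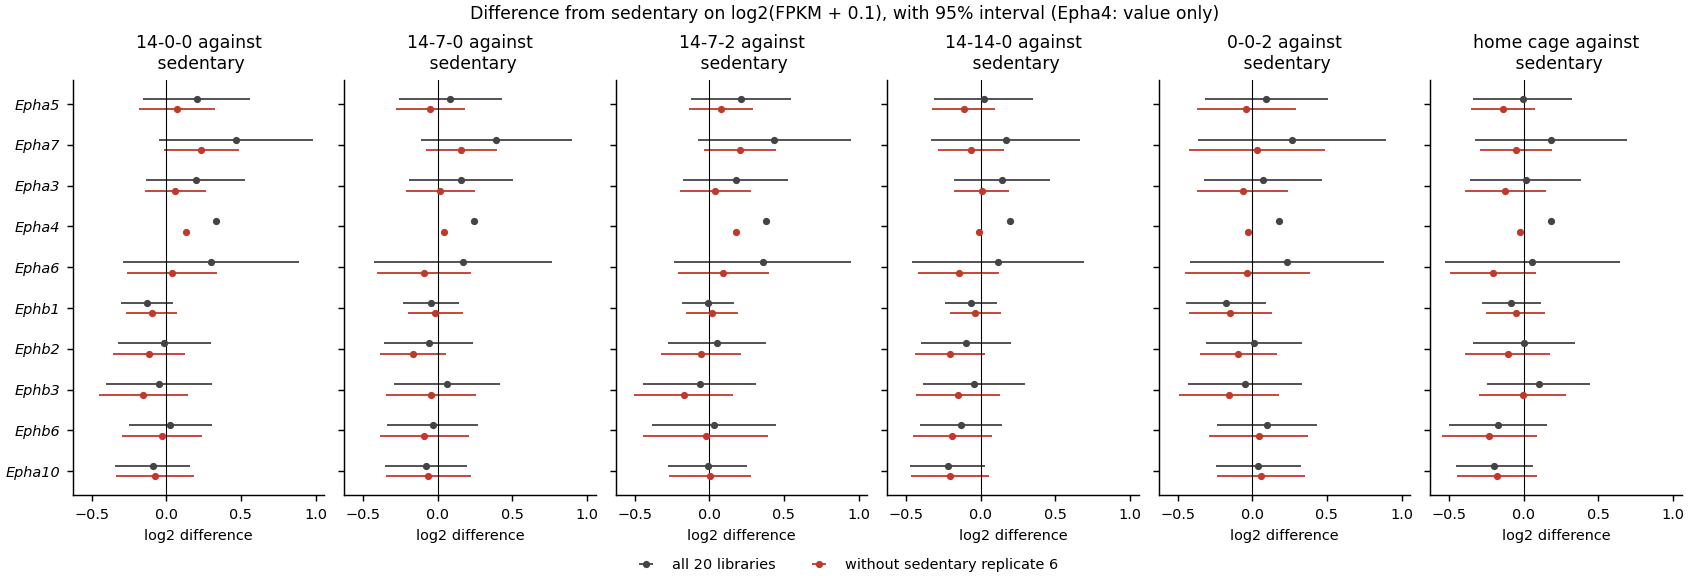
Difference from sedentary on log2(FPKM + 0.1) (x axis) for each receptor in 6 comparisons, with 95% intervals from limma, from all 20 libraries (dark) and without sedentary replicate 6 (red), and Epha4 as values only. All intervals drawn cross 0, and the 5 class A receptors at the top move to the left without that library, Epha6 in 14-0-0 from 0.30 to 0.037.

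The members' medians against sedentary were lower without sedentary replicate 6 in all 6 comparisons. The median log2 difference over all 10 members was 0.11 in both 14-0-0 and 14-7-2 and 0.073 in 14-7-0. It was 0.084 for 0-0-2, -0.013 for 14-14-0 and 0.0068 for home cage. Over all genes tested it lay between -0.010 and 0.0083. In 14-7-2, 7 of 10 members were above sedentary, and 7 were without that library as well, but not the same 7. Ephb2 went from 0.050 to -0.056 and Ephb6 from 0.033 to -0.025. Epha10 went from -0.011 to 0.0051 and Ephb1 from -0.0090 to 0.020. Epha4, which the study listed from this comparison, is in both counts. Without that library the members' median became 0.0030 in 14-0-0, 0.031 in 14-7-2 and -0.047 in 14-7-0. It became -0.036 for 0-0-2, -0.13 for 14-14-0 and -0.11 for home cage, where 0 of 10 members were above sedentary. These 6 comparisons share their sedentary libraries.

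Group means of each receptor were ranked as a description. For all 10 members, none of the 6 gaps between neighbouring group means exceeded the smaller of the 2 SDs, with or without sedentary replicate 6. These SDs are those of single libraries and not of means, so this comparison cannot decide whether groups differ. The highest group mean exceeded the lowest by 1.28 times for Epha7 (14-0-0 over sedentary), 1.24 times for Epha6 (14-7-2 over home cage) and 1.21 times for Epha4, Epha10 and Ephb6, and by 1.11 times for Ephb1 and Ephb3. Home cage was the lowest group for Epha3, Epha5, Epha6 and Ephb6, and 14-14-0 for Epha10 and Ephb2. Sedentary was the lowest for Epha4 and Epha7, and for neither without replicate 6.

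The harvest cohorts gave no call either. Between cohort 2 and cohort 1, with group in the fit, 0 of 10 members were called where 11.9% of all genes were (limma, unadjusted p under 0.05). The largest difference was that of Epha7, -0.18 ± 0.10 (log2, SE), with an unadjusted p of 0.0751. Whether a group differed from sedentary by another amount in cohort 2 than in cohort 1 was tested 54 times, and 2 were called before adjustment. None of the 9 receptors was called for 14-0-0 (4.63% of all genes), 14-14-0 (5.05%), 14-7-0 (1.82%) or home cage (0.87%). Ephb1 was lower by that measure in 0-0-2, -0.57 ± 0.19 (unadjusted p = 0.00408, adjusted p = 1), where 3.82% of all genes were called. Epha7 was higher in 14-7-2, 0.75 ± 0.37 (unadjusted p = 0.0465, adjusted p = 0.829), where 5.17% were. Sedentary replicate 6 and 0-0-2 replicate 8 both belong to cohort 2. Without sedentary replicate 6 the Epha7 value was 0.30 (unadjusted p = 0.32) and 3 terms were called. Epha5 was then lower by that measure in 14-0-0, -0.43 (unadjusted p = 0.0483, 9.19% of all genes called), and in 0-0-2, -0.44 (unadjusted p = 0.0444, 2.5% called), where Ephb1 was at -0.53 (unadjusted p = 0.0091). Without 0-0-2 replicate 8 there were also 3: Ephb1 in 0-0-2 at -0.40 (unadjusted p = 0.0267) and Epha7 in 14-7-2 at 0.75 and in 14-14-0 at 0.71 (unadjusted p = 0.0195 and 0.0279).

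The receptors varied together within groups, in sets that also differed in base composition. All 5 members under 50% GC are class A and the others are class B except Epha10, so class and base composition largely coincide. Correlations with base composition held fixed were not computed, so its part was not tested. Over 68 libraries, without sedentary replicate 6 and 14-7-0 replicate 4 and with the mean of each group and cohort removed, Pearson's r among the 5 members under 50% GC ran from 0.38 (Epha3 with Epha7) to 0.87 (Epha4 with Epha6), with a median of 0.74 over 10 pairs. Among the 5 members with at least 50% GC it ran from -0.19 (Epha10 with Ephb1) to 0.88 (Ephb3 with Ephb6), with a median of 0.53. Over the 25 pairs with 1 member of each set it ran from -0.22 to 0.49, with a median of 0.017. Epha10 varied with Ephb3 (r = 0.65) and Ephb6 (r = 0.58), not with the other class A receptors, where r was -0.22 to 0.26. Ephb1 lay between the sets, at 0.49 with each of Epha5, Epha4 and Ephb2. Without 0-0-2 replicate 8 and the libraries numbered 9, over 60 libraries, the medians were 0.65, 0.40 and 0.060. The points of these correlations share their libraries and so any composition of the dissected tissue, and no p is given.

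**Figure D4:**
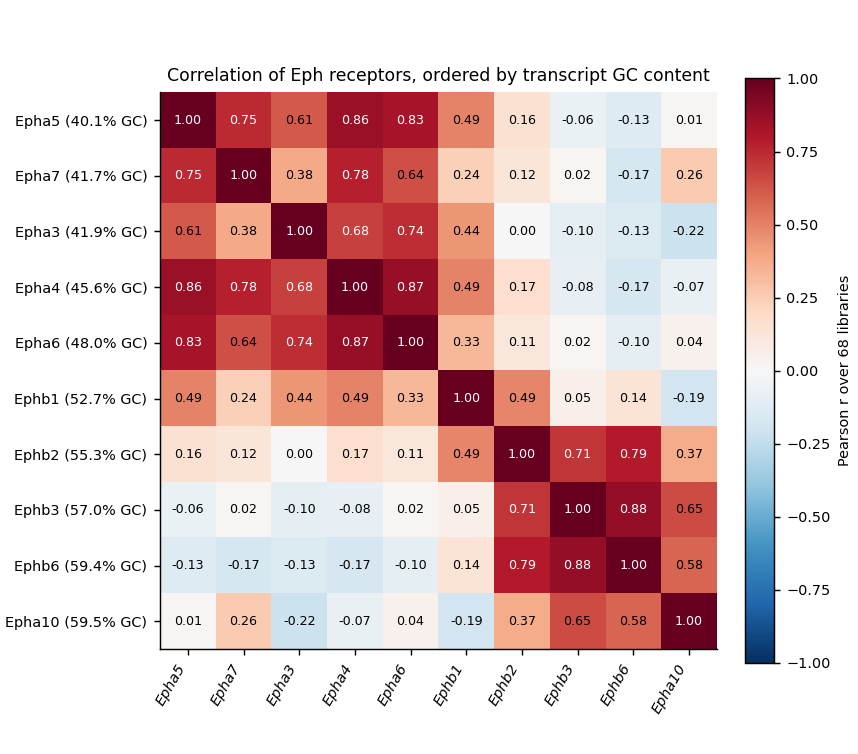
Pearson's r between each pair of Eph receptors (both axes, ordered by transcript GC content) over 68 libraries, on log2(FPKM + 0.1) with group and cohort means removed. The block from Epha5 to Epha6 and the block from Ephb2 to Epha10 are high within (0.38 to 0.87 and 0.37 to 0.88) and near 0 between, with Ephb1 in the middle.

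Each library has a GC slope, the change in log2 level per 10 percentage points of transcript GC over all genes tested relative to the mean library. Over the same 68 libraries, r with the GC slope was 0.86 for Ephb6, 0.78 for Ephb3, 0.74 for Ephb2 and 0.52 for Epha10. It was 0.11 for Ephb1 and between -0.39 and -0.27 for the 5 members under 50% GC. The members followed genes of like composition: the median r was -0.44 for 2293 genes under 45% GC and 0.74 for 2062 genes of at least 55% GC. Because the slope was fitted to the levels and GC content of such genes, the opposite signs of these medians follow from its definition. Spearman's rank correlation was 0.83 for Ephb6 and -0.41 for Epha4. Without the 2 libraries farthest from the median slope, r was 0.80 for Ephb6 and -0.36 for Epha4.

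The GC slopes of the 7 libraries numbered 9 lay between -0.56 and -0.12 with a median of -0.16, where the other 63 libraries had a median of 0.040. Ephb6 ran from 5.79 to 13.9 FPKM in the 7 of them (median 8.59), against 11.8 to 24.3 (median 19.1) in the 28 libraries of the same cohort numbered 5 to 8. Ephb3 had a median of 3.81 FPKM against 6.01, Ephb2 5.38 against 8.61 and Epha10 5.79 against 8.42. Epha4 was not low in them, with a median of 109 FPKM against 105, nor was Epha5, with 25.7 against 25.5. In 6 of 7 groups the library numbered 9 was the lowest of its group in Ephb6, and in 5 of 7 in Ephb2, Ephb3 and Epha10. All 7 groups hold 1 such library. Over the 61 libraries left without those numbered 9, r with the GC slope was 0.75 for Ephb6 and 0.28 for Epha10. The part of the GC slope in the receptor values was not tested apart from its use as a covariate.

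**Figure D5:**
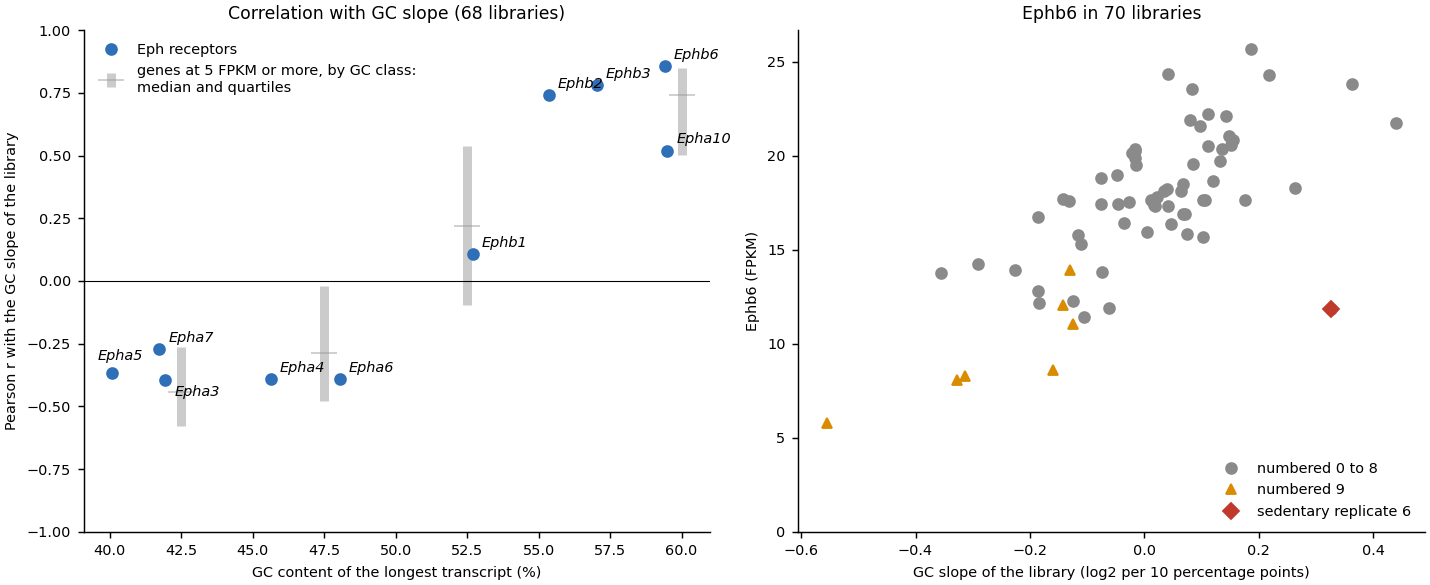
Left, r of each receptor with the GC slope of the library over 68 libraries (y axis) against GC content of its longest transcript (x axis, %), with the median and quartiles of all genes at 5 FPKM or more in 4 GC classes (under 45%, 45 to 50%, 50 to 55% and above) as grey bars. Right, Ephb6 in FPKM against GC slope in 70 libraries, where those numbered 9 (triangles) reach 5.79 FPKM at the slope of -0.56 and sedentary replicate 6 (diamond) has 11.8 FPKM at 0.33.

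Genes most like each receptor were taken by the highest r over the same 68 libraries, among the 9353 or 9354 other genes whose mean reached 5 FPKM. For Epha4 they were Prickle2 (r = 0.94), Rasgrp1 (0.92) and Nr3c2, the mineralocorticoid receptor (0.90). Rasgrp1 (0.88) was also first for Epha5, with Cog5 (0.87) and Epha4 itself (0.86). Trpc5, Garem and Frrs1l were nearest to Epha6 (0.91 to 0.89), Sertad4, Kcnab1 and Sphkap to Epha7 (0.91 to 0.85), and Shisa6, Dock4 and Coa5 to Epha3 (0.78 to 0.75). Ephb6 had the closest neighbours of all, Sema6b (0.97), Dctn1 (0.96) and Ptprs (0.96). Dab2ip, Git1 and Zfpm1 were nearest to Ephb3 (0.93 to 0.90), D17Wsu92e, Smpd3 and Kcnab2 to Ephb2 (0.92 to 0.90), Klhl17, Atxn7l2 and Chrd to Epha10 (0.85 to 0.84), and Pkp4, Ctnna2 and Padi2 to Ephb1 (0.79 to 0.76). Their GC content was like that of the receptor in most, with 58.8% for Dctn1 beside 59.4% for Ephb6 and 46.7% for Rasgrp1 beside 45.6% for Epha4.

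The ligands were uneven in level. Median levels over the 70 libraries were 50.5 FPKM for Efnb3 and 35.4 FPKM for Efna3, then 5.60 for Efnb2, 3.37 for Efna1, 2.85 for Efnb1, 2.82 for Efna2, 0.948 for Efna5 and 0.305 for Efna4. Of the 7 ephrins tested (Efna4 was below the minimum), 0 were called in each exercise group against sedentary, where 2.37% to 9.15% of all genes were. Home cage against sedentary gave 1 of 7 (2.3% of all genes). Efna1 was higher in home cage than in sedentary by 0.32 ± 0.10 (log2, SE) at an unadjusted p of 0.0052, and the adjusted p was 1 (limma). Efnb3 was lower in 14-7-2 than in 14-7-0 (-0.21 ± 0.07, unadjusted p = 0.00825, adjusted p = 0.66) and in 14-0-0 than in 14-7-0 (-0.16 ± 0.06, unadjusted p = 0.0168, adjusted p = 0.73). Efnb2 was lower in 14-7-2 than in 14-7-0 (-0.30 ± 0.14, limma, unadjusted p = 0.0456). The count was thus 2 of 7 in 14-7-2 against 14-7-0 (5.39% of all genes) and 1 of 7 in 14-0-0 against 14-7-0 (5.63%).

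The steps downstream of the receptors showed few calls. Against sedentary, 1 of 8 cytoskeleton effectors was called in 14-0-0 and 1 of 8 in 14-7-2, in both cases Cdc42, which acts in the growth of filopodia, at 0.16 ± 0.07 and 0.14 ± 0.06 (log2, SE; unadjusted p = 0.027 and 0.0388), where 9.15% and 4.39% of all genes were called. Without sedentary replicate 6, Cdc42 was called in 14-0-0 and not in 14-7-2. Of 10 adaptors and kinases, 1 was called in 0-0-2, Inppl1, a lipid phosphatase, at -0.17 ± 0.08 (unadjusted p = 0.0375, 2.37% of all genes called). That count was 0 in 0-0-2 without sedentary replicate 6 (2.52% of all genes called). It was then 1 in 14-0-0 (10.3%), Src, a kinase, at -0.20 ± 0.09 (limma, unadjusted p = 0.031). Of 3 shedding and scaffold genes 0 were called. Ephb4, an Eph receptor of vessels and no member, was higher in 14-14-0, 0.36 ± 0.14 (limma, unadjusted p = 0.0172, 4.95% of all genes called). Markers of tissue with many vessels were higher there too. The median sum of 6 choroid plexus markers was 2102 FPKM in 14-14-0 (41.6 to 21724) against 74.4 in the 9 sedentary libraries without replicate 6 (22.5 to 365), and that of 4 meningeal markers was 53.9 (13.9 to 228) against 19.1 (13.2 to 42.8). For 3 endothelial markers it was 39.6 (33.2 to 56.1) against 37.96 (33.2 to 60.8). In 14-0-0 the choroid plexus median was 2280 FPKM and the meningeal 53.0, and Ephb4 was at 0.13 ± 0.14 (unadjusted p = 0.373). The part of these markers in the values of Ephb4 or of the members was not tested.

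Receptors of the netrin, slit and semaphorin systems gave a background for the Eph family. Of 16 such genes, 3 were called lower in 14-0-0 than in sedentary (9.15% of all genes called): Unc5b, Plxna3 and Plxnc1. In 14-7-0 1 of 16 was called (3.26%), Plxnc1, and in 0-0-2 1 of 16 (2.37%), Unc5b, both lower. With sedentary replicate 6 left out the counts were 3 in 14-0-0 (10.3%), then Unc5b, Plxna1 and Plxnc1, 1 in 14-7-0 (3.29%), Plxnc1, and 0 in 0-0-2 (2.52%). In 14-7-2 the count went from 0 to 1 (3.58%), Unc5d, higher. In 14-7-2 against 14-7-0, 5 of 16 were called, Unc5c, Unc5d, Nrp1 and Nrp2 higher and Unc5b lower, where 0 of 9 Eph receptors and 5.39% of all genes were. The difference between the families was not tested. No adjusted p of these genes was under 0.463 with all libraries or under 0.367 without sedentary replicate 6 (limma).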

How the data were processed

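The 70 libraries, 1 per mouse, hold dorsal hippocampal RNA (poly-A, TruSeq, 50 bp single reads). The authors aligned uniquely mapping reads with ELAND v2e and Bowtie, allowing at most 2 mismatches, and made the deposited FPKM with Tuxedo programs (Cuffnorm and mm10 per the submitters' processing notes, versions not given in the sources used here). FPKM divide fragments by transcript length and library total, which does not remove a GC bias of a library. Read totals in the study's supplement go by barcode and the labels do not tie them to samples, so depth per library was not used here.

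Values were transformed as log2(FPKM + 0.1). Genes whose mean reached 1 FPKM (12994) were fitted with limma 3.58.1 (trend, two-sided, R 4.3.3) on the 20 libraries of each comparison. A call is an unadjusted p under 0.05; adjusted p-values (Benjamini-Hochberg) span all tested genes. Fold changes understate changes of low genes. On simulated data for 14-0-0 against sedentary with 12994 genes, 73 of 100 genes changed by 0.25 (log2) were called. For genes changed by 0.5 it was 91 of 100. These shares are not for the members. In the measured 14-0-0 comparison their SEs ran from 0.084 (Ephb1) to 0.28 (Epha6), and Epha7 at 0.47 was not called. The share of such changes that would be called in the members was not tested.

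The members and gene lists were chosen with earlier results of these data known. Levels entered the choice of members, so they are a description. Named were all members, the other Eph genes, all ephrins, the 2 genes of smallest p per list and comparison, the 2 per list farthest off in sedentary replicate 6, and the 3 nearest genes per member. Marker genes and called list genes beyond these were named after their values were seen. GC content came from the longest GENCODE M21 transcript of 12521 genes (96.4% of those tested). Replicate numbers were not taken as pairs: with sedentary, 2 to 7 of 10 same-numbered pairs had a correlation of deviations over 0.1, although the libraries numbered 9 did in 21 of 21 pairs of groups. Nothing says more of the replicates than that each library is a mouse. As alternatives, a pseudocount of 1, a minimum mean of 5 FPKM or no minimum, median-ratio scaling, a joint fit, cohort or replicate number as a term, each cohort alone, Cyber-T on FPKM, p under 0.01 and leaving out libraries were tried. Figures used matplotlib 3.10.9 under Python 3.11.15 and sequences Biopython 1.88.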

Additional observations from a re-analysis of the deposited data

Results flagged for a closer look

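Of 70 sets of 10 libraries (10 receptors in 7 groups), 13 held a library whose gap to the nearest other, divided by the range of the group, passed Dixon's 95% critical value, and chance gives about 1 in 20, or 3.5. In 0-0-2 replicate 8 this held for Epha3 (1.70 FPKM), Epha4 (46.4 FPKM), Epha5 (11.8 FPKM) and Epha7 (22.5 FPKM), all low. In sedentary replicate 6 it held for Epha4 (24.9 FPKM) and Epha7 (15.1 FPKM), also low. In libraries numbered 9 it held for Ephb2 (4.41 FPKM) and Ephb6 (5.79 FPKM) in 14-7-2 and for Ephb6 (8.09 FPKM) in 0-0-2, all low. The other 4 were high values. Epha3 was at 6.49 FPKM in 14-7-0 replicate 1. In 14-14-0 replicate 3, Epha3 was at 5.36 FPKM and Ephb1 at 14.6 FPKM, and in 14-14-0 replicate 8, Epha10 was at 10.2 FPKM.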

How the results depend on the processing

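Of 81 single values with a direction, 2 reversed to a call: Epha6 in home cage against sedentary was -0.27 with GC slope as a covariate and without sedentary replicate 6, and Ephb6 in cohort 2 against 1 was 0.15 without the libraries numbered 9. The counts of receptors called moved by over 1.5 times, or from 0, in the cases below. Each is given with the share of all genes called, and the cause was not tested. With the joint fit of all 7 groups the count became 1 in 14-0-0 (11.9%), 1 in 14-7-0 (6.9%) and 1 in 14-7-2 (8.33%). Each time it was Epha7, higher than in sedentary. Cyber-T on FPKM also gave 1 in 14-0-0 (3.54%) and 1 in 14-7-2 (1.27%), again Epha7. With the replicate number as a block it was 1 in 14-0-0 (Epha7, 14.5%) and 1 in 14-14-0 (Epha10, lower, 7.04%). It was also 1 in 14-7-2 against 14-7-0 (Ephb3, lower, 6.4%). Of 70 libraries, 22 correlated best with their own number, and the libraries numbered 9 were over 0.1 in 21 of 21 pairs of groups. As a hint from the data and not the design, the numbers share structure in part. Cohort 1 alone gave 1 in 14-0-0 (Epha5, 7.94%) and 2 in 14-0-0 against 14-7-0 (Epha5, Ephb3, 3.65%). It also gave 2 over the 7 groups (Epha5, Epha7, 8.19%). Cohort 2 alone gave 1 in 0-0-2 (Ephb1, lower, 2.72%) and 2 in 14-7-2 against 14-7-0 (Epha5, Epha7, 5.2%). The following settings were chosen after seeing the data. Without 0-0-2 replicate 8 the count over the 7 groups was 1 (Epha7, 7.71%). Without the libraries numbered 9 it was 1 in 14-7-2 against 14-7-0 (Ephb2, 7.7%) and 3 between cohorts (Epha10, Ephb3, Ephb6, 27.9%). It was then 6 for the cohort by group terms (4.61%). GC slope as a covariate gave 1 between cohorts (Ephb6, 15%). With sedentary replicate 6 left out as well it gave 1 between cohorts (Ephb6, 16.4%) and 2 in home cage (Epha5, Epha6, both lower, 4.47%). At an unadjusted p under 0.01 the cohort by group terms gave 1 (0.454%). Adjusted p-values of receptors under any setting were at least 0.108 (limma and Cyber-T). Epha3 was not tested at a minimum of 5 FPKM. Depth per library was not used here, so what it limits was not computed.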
